A study of Mus musculus with 6 samples.

Results

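The genes described here are 42 genes of the endoplasmic reticulum (ER) that fold secretory proteins, remove misfolded ones by ER-associated degradation (ERAD) or carry the unfolded protein response. They were taken by symbol from a list of names that was drawn up with earlier results of these data known. All 42 had a row among the 25067 rows of the expression values, with Ero1lb listed under its current symbol Ero1b, and all 42 were among the 13210 genes tested, those whose normalized counts averaged 10 or more. A normalized count is the number of reads on a gene divided by 1 size factor per library. The values came from RNA sequencing of 6 libraries of mouse colon organoids, 3-dimensional cultures grown from isolated crypts of C57BL/6 mice aged 8 weeks. All 6 libraries carried the genotype Prkcif/fPrkczf/f;Villin-CreERT2, in which both genes of the atypical protein kinases C (aPKC) are floxed and the Villin promoter, active in gut epithelium, drives a Cre recombinase that 4-OH-Tamoxifen (4-OHT) switches on. After passage, 3 cultures received vehicle (ethanol) and 3 received 4-OHT for 3 days. The labels call the first group wild type and the second Prkci/Prkz-DKO, although both have the same floxed alleles and the same Cre. No library with 4-OHT but without floxed genes, or without Cre, was analysed here, so aPKC loss, Cre activity and 4-OHT itself cannot be told apart. The labels do not say whether the 3 libraries of a group came from separate animals or cultures, so p-values measure the spread between these samples, which may be technical.

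Proteins bound for secretion or for membranes enter the ER through the Sec61 channel, where chaperones, lectins and disulfide isomerases fold them. Those that fail to fold are moved back to the cytosol, tagged with ubiquitin and degraded, which is ERAD. When unfolded protein accumulates, the membrane sensors IRE1, ATF6 and PERK start the unfolded protein response: IRE1 splices the Xbp1 mRNA, the cut form of ATF6 enters the nucleus to switch on chaperone genes, and PERK slows translation. In the gut, secretory cells such as goblet and Paneth cells depend on this pathway, and IRE1β, the product of Ern2, is found in epithelium that makes mucus.

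The libraries held between 15804709 and 26957612 reads, and the 10 genes with the most reads took 5.93% to 6.61% of them. Prkcz was at 880, 904 and 954 normalized counts in the vehicle libraries and at 287, 265 and 290 in the 4-OHT libraries, and its log2 fold change was -1.70 (SE 0.08, limma adjusted p = 3.2e-12). Prkci changed less, by -0.22 (SE 0.05, limma adjusted p = 8.1e-04), a fall of 14.2% in the mean. For both genes, 1 value per gene also counts reads from exons that recombination leaves in place. These values alone do not show how complete the loss of either gene was. The groups did not overlap for either gene. On the first principal component, with 58.2% of the variance, the groups lay apart, and on the second, with 14.1%, 4-OHT replicate 1 (-26.8) lay apart from 4-OHT replicates 2 (10.5) and 3 (10.9). Markers of other cells rose unevenly. The 6 plasma cell markers summed to 0 reads in each vehicle library and to 4, 205 and 62 reads in 4-OHT replicates 1, 2 and 3, with Mzb1 at 0 in every library and no row for Tnfrsf17. The 9 Paneth cell and ileum markers summed to 35.8 to 49.9 RPM (reads per 1000000 reads of the library) in vehicle and to 54.8, 93.1 and 101 RPM in 4-OHT. Of the 8 tested, 6 were higher in limma's fit, which called 22.7% of all tested genes higher, 7 in edgeR and 5 in DESeq2. Defa30 and Mptx2 were at 0 in every vehicle library. The 6 epithelial markers were high throughout, at 13162 to 13478 RPM in vehicle and 16946 to 18041 in 4-OHT. The 6 markers of dividing cells were all lower in 4-OHT, where 21% of all tested genes were lower. Their sum went from 1577 to 1675 down to 819 to 944 RPM. The part of these differences in the results that follow was not tested.

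ER folding and unfolded protein response genes were mostly lower in 4-OHT organoids. Of the 42 genes, 24 (57.1%) were lower past an adjusted p of 0.05 in limma's fit across all genes, where 21% of all tested genes were lower, and 2 were higher (Dnajc10 and Ufm1), where 22.7% of all tested genes were higher. The other 16 did not pass the threshold. Counts of lower and higher genes by role, arm or list below stand beside the same 21% and 22.7% of all tested genes. The median log2 fold change of the 42 was -0.20, on the log2 scale of the normalized count plus 1, beside -0.0054 over all tested genes, and the single genes ranged from -2.41 (Derl3) to 0.24 (Ufm1). For 25 of the 42 every 4-OHT library lay below every vehicle library, where 25.3% of all tested genes did so, and for 2 every 4-OHT library lay above, where 26.8% did. There were 8 genes with a log2 fold change below -0.5, against 7.51% of all tested genes, and 0 of the 42 were higher by more than 0.5, against 6.68%. In edgeR's quasi-likelihood test 24 were lower and 2 higher, in DESeq2 22 and 2. Together the 42 genes took 7735, 7862 and 7618 RPM in the 3 vehicle libraries and 6061, 6033 and 6086 in the 3 4-OHT libraries, so the summed share was lower in each 4-OHT library. The median of the 42 genes against the vehicle mean was -0.27, -0.20 and -0.17 in 4-OHT replicates 1, 2 and 3. In the same order, plasma cell markers had 4, 205 and 62 reads, and Paneth cell and ileum markers 54.8, 93.1 and 101 RPM. A link between them was not tested. In these bulk libraries, fewer cells of a type and less RNA per cell cannot be told apart.

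**Figure D1:**
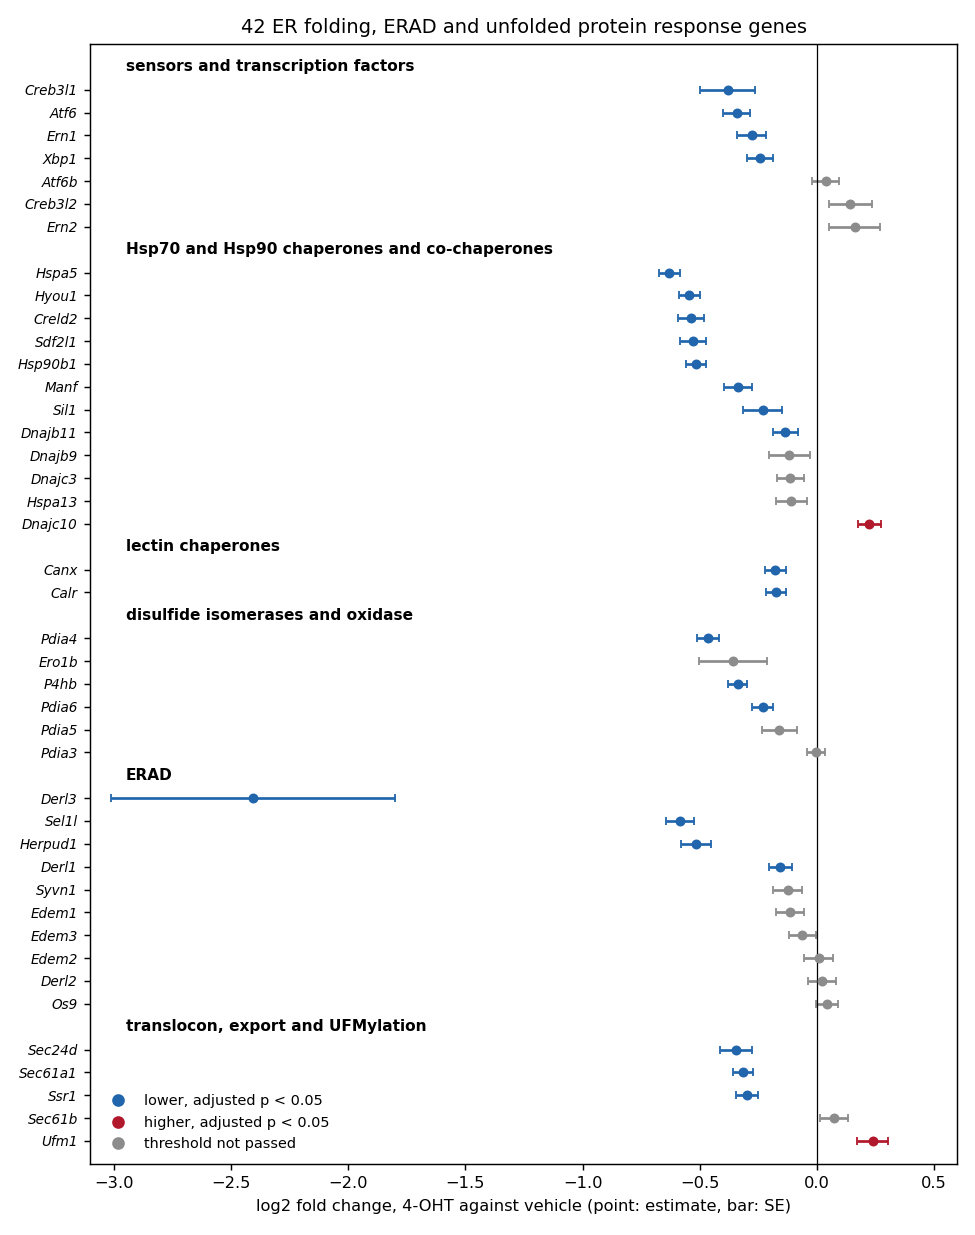
Log2 fold change of each of the 42 genes in 4-OHT against vehicle organoids (point, with the SE of limma's fit as a bar), grouped by role. Blue points (24 genes) were lower and red points (2 genes) higher past an adjusted p of 0.05, and Derl3 stands far left at -2.41 with the widest bar (SE 0.61).

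Promoter letters were not part of the rule, but the list was drawn from the ATF6 and XBP1 arms, so a high share of their elements follows in part from the choice of genes. The ER stress response element (ERSE) is the classic target of cut ATF6, which reads its CCACG end while the factor NF-Y holds its CCAAT end. Promoters running from 250 bases before to 50 bases after the annotated start were available from RefSeq (mouse build GRCm38.p6) for 33 of the 42 genes, and both strands were searched for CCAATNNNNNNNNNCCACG. The element was found in 10 of the 33 genes (30.3%), with 11 matches in all. In the whole table it was found in 37 of 27025 genes (0.137%) and 39 of 32851 promoters (0.119%). The 11 matches began 212 to 44 bases before the start. They are printed here to show the spacers, in the direction of the motif. The ends, which the search fixed, are in capitals and the 9 bases between them, which it left free, are in lower case.
Derl3, chr10:75893242-75893260: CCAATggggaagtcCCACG
Hspa5, chr2:34772025-34772043: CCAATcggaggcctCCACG
Creld2, chr15:88819520-88819538: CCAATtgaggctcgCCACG
Hsp90b1 (match 1), chr10:86705638-86705656: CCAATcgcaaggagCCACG
Hsp90b1 (match 2), chr10:86705533-86705551: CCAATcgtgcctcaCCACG
Ero1b, chr13:12565682-12565700: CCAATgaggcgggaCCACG
Pdia6, chr12:17266491-17266509: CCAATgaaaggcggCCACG
Canx, chr11:50325800-50325818: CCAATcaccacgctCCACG
Calr, chr8:84847075-84847093: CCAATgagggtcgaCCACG
Syvn1, chr19:6046532-6046550: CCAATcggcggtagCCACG
Dnajc3, chr14:118937827-118937845: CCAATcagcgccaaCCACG

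Of the 10 genes with an ERSE, 7 were lower in 4-OHT, 3 did not pass the threshold and 0 were higher, with 0 at an unadjusted p under 0.05 and 0 in edgeR and DESeq2, and their median log2 fold change was -0.29. Of the 23 genes whose promoter held no match, 10 were lower and 2 higher, with a median of -0.12. Among these 23, Sel1l (-0.58), Sdf2l1 (-0.53), Herpud1 (-0.52) and Pdia4 (-0.47) fell the most. The difference between the 2 small sets was not tested. The other 9 genes had no promoter available: Atf6, Creb3l1, Hyou1, Sil1, Manf, Derl1 and Sec61a1 were lower, and Ern2 and Hspa13 did not pass. The related ERSE-II (ATTGGNCCACG) was found in Herpud1 and Dnajb11, both lower, and in 0.0365% of all promoters. The unfolded protein response element read by XBP1 and ATF6 (TGACGTGG) was found in Sec24d, which was lower, and in 0.676% of all promoters. Outside the list 27 further genes of the table held an ERSE, of which 9 were tested: 2 were lower, 2 higher and 5 did not pass, with a median of -0.17. A match is a description of the letters and not a shown site of binding. The search took exact letters only, so elements that differ by a letter were not counted. The 250 bases before the start are given for the 4 genes with an ERSE that fell by more than 0.5, read 5′ to 3′ on the strand of the gene, with each ERSE in capitals. In Derl3 and Creld2, and in the match of Hsp90b1 nearer the start, the element lies on the opposite strand, so its letters appear in reverse complement.
Derl3, chr10:75893148-75893397, plus strand: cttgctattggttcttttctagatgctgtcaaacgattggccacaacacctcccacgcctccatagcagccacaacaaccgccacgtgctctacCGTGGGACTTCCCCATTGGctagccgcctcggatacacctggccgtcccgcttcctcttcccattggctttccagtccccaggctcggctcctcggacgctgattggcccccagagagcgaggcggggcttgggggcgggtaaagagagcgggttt
Hspa5, chr2:34771840-34772089, plus strand: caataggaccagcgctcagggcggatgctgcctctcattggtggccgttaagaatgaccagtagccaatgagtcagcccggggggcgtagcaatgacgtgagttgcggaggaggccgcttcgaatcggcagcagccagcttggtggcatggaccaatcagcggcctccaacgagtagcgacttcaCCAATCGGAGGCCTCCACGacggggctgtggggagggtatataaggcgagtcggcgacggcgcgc
Creld2, chr15:88819396-88819645, plus strand: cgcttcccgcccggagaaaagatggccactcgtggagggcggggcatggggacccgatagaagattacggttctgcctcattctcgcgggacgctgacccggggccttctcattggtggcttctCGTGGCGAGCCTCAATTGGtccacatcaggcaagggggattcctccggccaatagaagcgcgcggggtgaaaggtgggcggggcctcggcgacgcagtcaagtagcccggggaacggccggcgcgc
Hsp90b1, chr10:86705445-86705694, minus strand: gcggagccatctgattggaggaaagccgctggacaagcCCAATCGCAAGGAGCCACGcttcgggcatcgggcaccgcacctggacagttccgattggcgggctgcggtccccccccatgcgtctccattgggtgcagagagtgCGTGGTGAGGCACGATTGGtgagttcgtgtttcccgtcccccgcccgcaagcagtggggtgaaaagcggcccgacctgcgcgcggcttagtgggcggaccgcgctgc

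**Figure D2:**
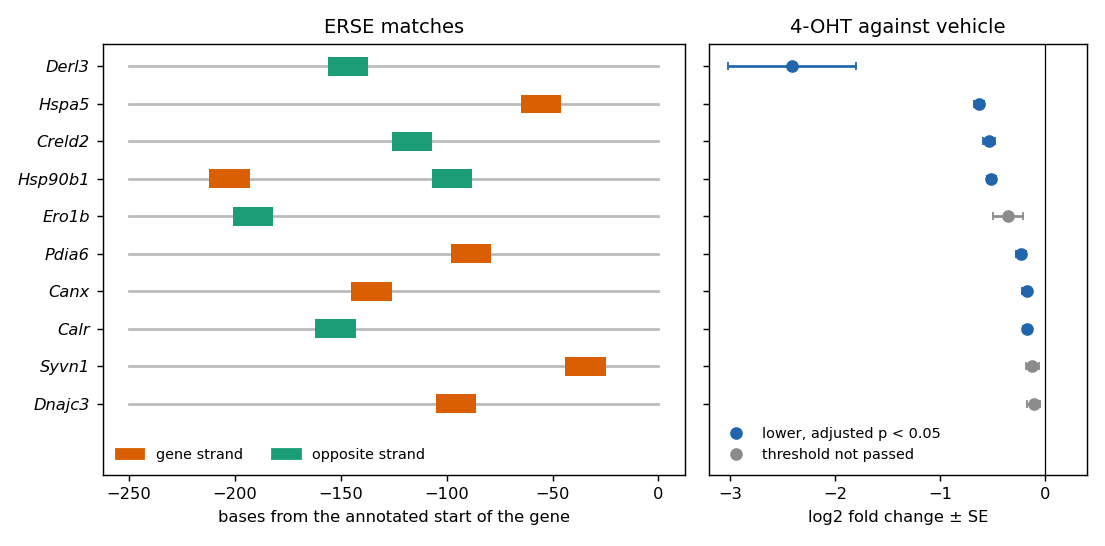
Left, position of each ERSE match in the 250 bases before the annotated start of the 10 genes that hold one (bar: the 19 bases of the element, coloured by strand). Right, log2 fold change of the same genes in 4-OHT against vehicle with its SE: 7 were lower (blue) and 3 did not pass the threshold (grey).

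Within each pair of paralogs among the sensors and transcription factors, 1 gene passed the threshold and 1 did not, and the difference between paralogs was not tested. Of the 7, 4 were lower (Xbp1, Atf6, Ern1 and Creb3l1) and 3 did not pass the threshold (Atf6b, Ern2 and Creb3l2), with a median of -0.24. Atf6, the membrane sensor whose cut form drives chaperone genes, was at 1566, 1612 and 1424 normalized counts in vehicle and 1215, 1162 and 1249 in 4-OHT. The groups did not overlap, and the log2 fold change was -0.34 (SE 0.06, limma adjusted p = 9.0e-05). Its paralog Atf6b was at 1495, 1534 and 1663 in vehicle and 1685, 1566 and 1561 in 4-OHT, a log2 fold change of 0.04 (limma adjusted p = 0.63). The 4-OHT values of Atf6b lay among the vehicle values or just above them.

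Xbp1, whose mRNA is the substrate of IRE1, was at 3263, 3182 and 3075 in vehicle and at 2458, 2771 and 2832 in 4-OHT. All 3 4-OHT libraries were lower, replicate 1 most, and the log2 fold change was -0.24 (SE 0.05, limma adjusted p = 0.0011). The values hold 1 number per gene, so spliced and unspliced Xbp1 were not separated. Ern1, which encodes IRE1α, was at 919, 897 and 839 in vehicle and at 716, 731 and 740 in 4-OHT, with a log2 change of -0.28 (SE 0.06, limma adjusted p = 0.0014). Its 3 4-OHT values were close together and below all vehicle values. Ern2, which encodes IRE1β, was at 236, 231 and 208 in vehicle and 262, 225 and 270 in 4-OHT, and the groups overlapped (log2 fold change 0.16, limma adjusted p = 0.24). Beside Ern2, which goblet cells use, 5 of 8 goblet cell markers were higher in 4-OHT (4 in edgeR and 4 in DESeq2) and 1 was lower. Of all tested genes, 22.7% were higher and 21% lower. The summed level of the 8 goblet cell markers was 382 to 476 RPM in vehicle and 400 to 450 in 4-OHT.

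Creb3l1, a membrane-bound factor of secretory cells that is cut like ATF6, was at 325, 358 and 305 in vehicle and 241, 216 and 308 in 4-OHT. 4-OHT replicate 3 lay inside the vehicle range, and the log2 change of -0.38 (SE 0.12, limma adjusted p = 0.013) passed no longer without vehicle replicate 2 (-0.32, limma adjusted p = 0.071) or without 4-OHT replicate 2 (-0.27, limma adjusted p = 0.083). Its paralog Creb3l2 was at 504, 453 and 409 in vehicle and 560, 469 and 479 in 4-OHT, with overlapping groups (0.14, limma adjusted p = 0.22).

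**Figure D3:**
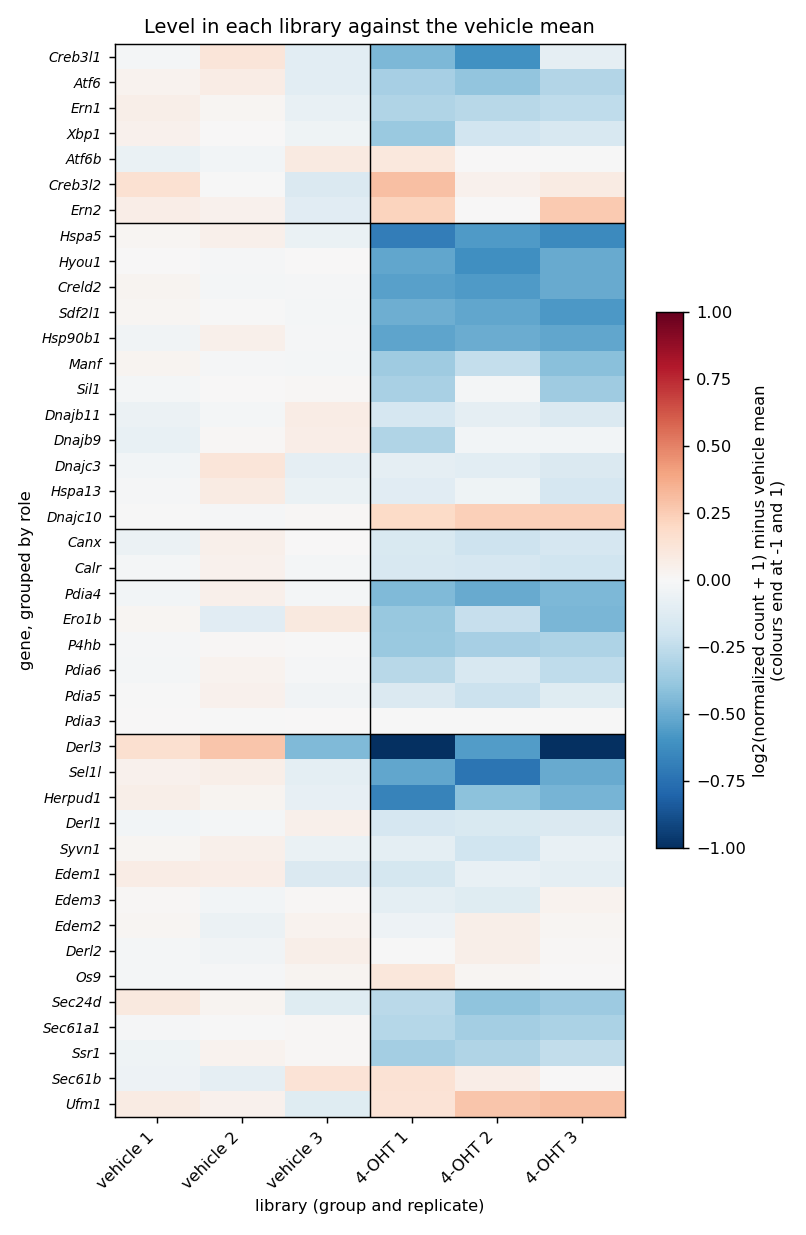
Level of each of the 42 genes in each of the 6 libraries as log2(normalized count + 1) minus the mean of the 3 vehicle libraries, with the colour scale ending at -1 and 1. Most rows are blue in all 3 4-OHT columns, and Dnajc10 and Ufm1 are the rows that passed the threshold upward.

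The group of Hsp70 and Hsp90 chaperones and their partners, under which Creld2 was also listed, held 5 of the 8 genes with a log2 fold change below -0.5. Of 12 genes, 8 were lower, 1 was higher (Dnajc10) and 3 did not pass the threshold, with a median of -0.28, and their summed normalized counts in 4-OHT were 0.72 times those in vehicle. Hspa5 encodes BiP, the main Hsp70 of the ER, which also holds the sensors inactive. Its normalized count was 23265, 23876 and 21936 in vehicle and 14272, 15555 and 14832 in 4-OHT. Every 4-OHT library was far below every vehicle library, and the mean fell by 35.3% (log2 fold change -0.63, SE 0.05, limma adjusted p = 1.9e-09). Hyou1, a large Hsp70 relative that exchanges the nucleotide of BiP, was at 5007, 4939 and 5007 in vehicle and 3486, 3252 and 3515 in 4-OHT. The SD of the 3 vehicle values was 39.6, and the log2 fold change was -0.55 (SE 0.05, limma adjusted p = 1.1e-08).

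Hsp90b1, which encodes GRP94, the Hsp90 of the ER, was at 6646, 7055 and 6741 in vehicle and 4737, 4825 and 4740 in 4-OHT. The groups lay apart with little spread in 4-OHT, and the mean fell by 30.0% (log2 fold change -0.51, SE 0.04, limma adjusted p = 1.1e-08). Creld2, a secreted ER stress protein, was at 1320, 1282 and 1288 in vehicle and 891, 875 and 915 in 4-OHT. It fell by 0.54 on the log2 scale (SE 0.06, limma adjusted p = 2.2e-07) in libraries that did not overlap. Sdf2l1, a partner of BiP and its J-domain proteins, was at 1368, 1351 and 1337 in vehicle and 962, 940 and 908 in 4-OHT. The size of its fall, 0.53 on the log2 scale (SE 0.06, limma adjusted p = 2.5e-07), was close to those of Creld2, Hyou1 and Hsp90b1. All 5 of these genes kept their direction and their call under every alternative tried.

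The other members of the group changed less. Manf, a secreted factor that binds BiP, fell by 0.34 (limma adjusted p = 1.1e-04). Sil1, a further nucleotide exchange factor of BiP, fell by 0.23 (limma adjusted p = 0.029), and the call was lost when any 1 of the 6 libraries other than 4-OHT replicate 2 was left out. Dnajb11, a J-domain partner of BiP, fell by 0.13 (limma adjusted p = 0.043) and lost its call in DESeq2 (adjusted p = 0.054) and on leaving out any 1 of 4 libraries, among them vehicle replicate 3 (limma adjusted p = 0.17). The call of Dnajb11 was also lost with 4-OHT replicate 1 as the only 4-OHT library (-0.17). Hspa13 (-0.11, limma adjusted p = 0.19), an ER-resident Hsp70 relative, did not pass, nor did the J-domain genes Dnajb9 (-0.12, limma adjusted p = 0.30) and Dnajc3 (-0.11, limma adjusted p = 0.12). Dnajc10 encodes a J-domain protein that reduces disulfide bonds of proteins on their way to degradation. It was 1 of 2 genes that moved the other way, and its values are given for that reason, after they were seen: 1799, 1791 and 1814 in vehicle and 2060, 2125 and 2125 in 4-OHT. All 4-OHT values lay above all vehicle values, with a log2 change of 0.22 (SE 0.05, limma adjusted p = 8.2e-04).

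**Figure D4:**
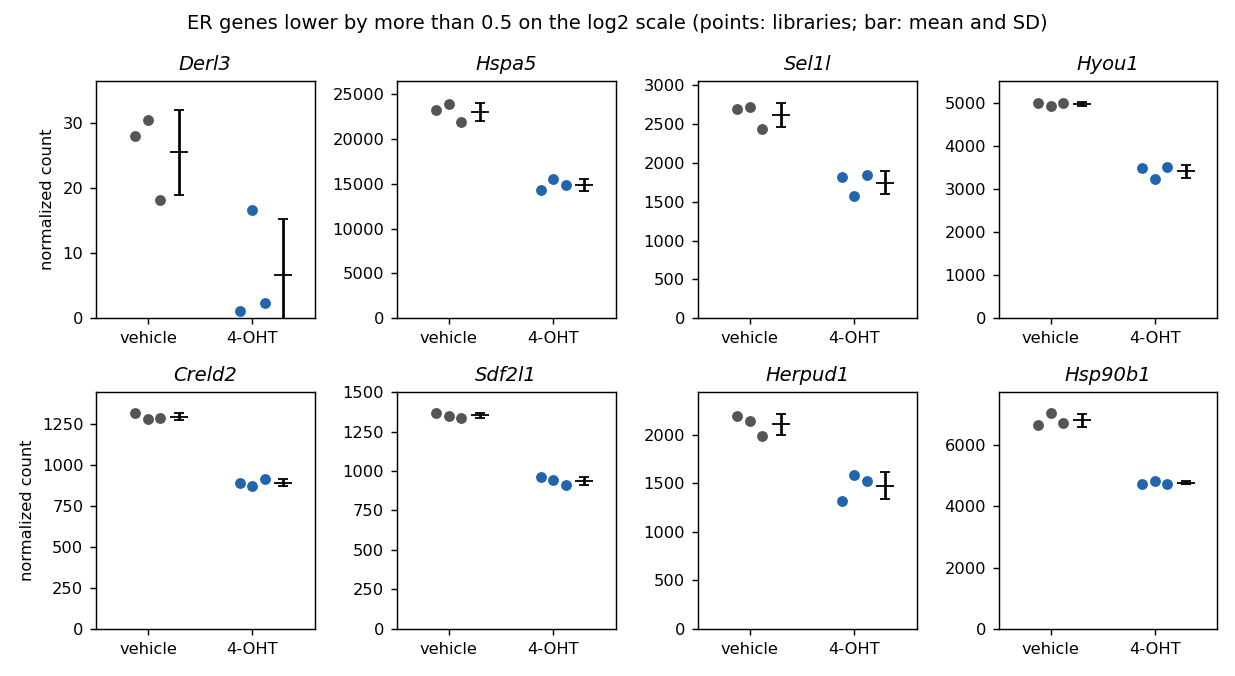
Normalized count of the 8 genes with a log2 fold change below -0.5 in each vehicle and 4-OHT library (points), with mean and SD of 3 libraries (bars; the lower SD bar of Derl3 in 4-OHT ends at the axis). The groups do not overlap in any panel, and the axis of Derl3 runs far lower than those of the other 7. For Derl3 they lie apart only after scaling: vehicle replicate 3 had 15 reads and 4-OHT replicate 2 had 16.

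Both lectin chaperones, which hold glycoproteins through their trimmed sugar, fell slightly. Canx, the membrane-bound calnexin, was at 8334, 8986 and 8693 in vehicle and 7788, 7512 and 7707 in 4-OHT. The groups did not overlap, but the fall was small, 0.18 on the log2 scale (SE 0.04, limma adjusted p = 0.0024). Calr, the soluble calreticulin, fell by 0.17 (SE 0.04, limma adjusted p = 0.0019). With 4-OHT replicate 1 as the only 4-OHT library, neither passed the threshold (limma adjusted p = 0.076 for Canx and 0.062 for Calr).

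Of the disulfide isomerases and the oxidase Ero1b, 5 of 6 had every 4-OHT library below every vehicle library, where 25.3% of all tested genes did so. The exception was Pdia3. Of 6 genes, 3 were lower (Pdia4, P4hb and Pdia6) and 3 did not pass, with a median of -0.28. Pdia4, an isomerase with several thioredoxin domains, was at 3461, 3654 and 3473 in vehicle and 2594, 2481 and 2589 in 4-OHT. It fell the most of the isomerases in libraries that did not overlap (log2 fold change -0.47, SE 0.05, limma adjusted p = 1.2e-07). P4hb, the canonical protein disulfide isomerase, fell by 0.34 (limma adjusted p = 1.2e-06) and Pdia6, which also acts on IRE1, by 0.23 (limma adjusted p = 2.5e-04). Pdia3, the isomerase that works with calnexin and calreticulin, had a log2 change of -0.0035 (SE 0.04, limma adjusted p = 0.95). Among the members it was the one nearest to 0, although after quantile normalization it was lower (-0.11, limma adjusted p = 0.025). Pdia5 (-0.16, limma adjusted p = 0.094) did not pass, although its 4-OHT libraries all lay below its vehicle libraries. Ero1b, the oxidase that recharges the isomerases, did not pass either (-0.36, SE 0.15, limma adjusted p = 0.054), while all of its 4-OHT libraries lay below all vehicle libraries and it passed without 4-OHT replicate 2 (-0.42, limma adjusted p = 0.045).

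Among the 10 ERAD genes the falls were concentrated in 3 genes. There were 4 lower genes (Derl3, Sel1l, Herpud1 and Derl1) and 6 that did not pass, with a median of -0.12. Sel1l, the adaptor that ties substrates to the ubiquitin ligase of the ERAD complex, was at 2695, 2717 and 2442 in vehicle and 1824, 1580 and 1842 in 4-OHT. The groups lay well apart, and the mean fell by 33.2% (log2 fold change -0.58, SE 0.06, limma adjusted p = 2.2e-07). Herpud1, a membrane protein that organises the same complex, was at 2194, 2137 and 1981 in vehicle and 1320, 1583 and 1520 in 4-OHT. It was lowest in 4-OHT replicate 1 and fell by 0.52 on the log2 scale (SE 0.06, limma adjusted p = 1.8e-06). Syvn1, the ubiquitin ligase itself (HRD1), did not pass (-0.12, limma adjusted p = 0.11), although its 4-OHT libraries all lay below its vehicle libraries.

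The derlins, membrane proteins of the retrotranslocation channel, differed from each other. Derl3, the derlin of professional secretory cells, had few reads: 28.0, 30.5 and 18.2 normalized counts in vehicle and 1.03, 16.6 and 2.28 in 4-OHT. In 4-OHT replicates 1 and 3 this was 1 and 2 reads, below the floor of 3 reads set for a single library, and in replicate 2 it was 16 reads. Vehicle replicate 3 had 15 reads, so the groups lay apart only after scaling by the size factors. The fitted log2 change of -2.41 (SE 0.61, limma adjusted p = 0.0031) is therefore imprecise: it was -3.33 without 4-OHT replicate 2, -1.77 without 4-OHT replicate 1, and -1.95 in DESeq2, where it did not pass (adjusted p = 0.12). 4-OHT replicate 2, the highest of its group for Derl3, was also the library with the most plasma cell marker reads (205), whose part in the value was not tested. Derl1 fell by 0.16 (limma adjusted p = 0.014). Its call was lost without vehicle replicate 3 (limma adjusted p = 0.055) and with 4-OHT replicate 1 as the only 4-OHT library (-0.17). Derl2 did not pass (0.02, limma adjusted p = 0.79). The mannosidase-like proteins that mark glycoproteins for disposal did not pass (Edem1 -0.11, limma adjusted p = 0.13; Edem2 0.0075, adjusted p = 0.94; Edem3 -0.06, adjusted p = 0.42), nor did the lectin Os9 (0.04, limma adjusted p = 0.50).

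Of the 5 genes of entry, export and UFMylation, 3 were lower, 1 was higher and 1 did not pass, with a median of -0.30. Sec24d, a cargo-binding subunit of the COPII coat that carries proteins out of the ER, was at 1002, 956 and 862 in vehicle and 779, 708 and 731 in 4-OHT. The groups did not overlap (log2 fold change -0.34, SE 0.07, limma adjusted p = 4.2e-04), but with 4-OHT replicate 1 as the only 4-OHT library the call was lost (limma adjusted p = 0.054). Sec61a1, the pore of the translocon, fell by 0.31 (limma adjusted p = 5.3e-06) and Ssr1, a subunit of the translocon-associated complex, by 0.30 (limma adjusted p = 2.6e-05). Sec61b, a small subunit of the same channel, did not pass (0.07, limma adjusted p = 0.33), though it did without vehicle replicate 3 (0.14, limma adjusted p = 0.048). Ufm1, the ubiquitin-like modifier that is attached to ribosomes at the ER, was the second gene that moved up and its values are given for that reason: 1065, 1036 and 922 in vehicle and 1105, 1219 and 1240 in 4-OHT. All 4-OHT values lay above all vehicle values (log2 fold change 0.24, SE 0.07, limma adjusted p = 0.0064), but with 4-OHT replicate 1 as the only 4-OHT library the value was 0.14 (limma adjusted p = 0.30).

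Some members were also listed by arm, as ATF6 or XBP1 targets, in lists drawn up with earlier results of these data known. Of the genes with an ERSE, Derl3, Canx, Pdia6, Ero1b and Syvn1 were in neither list, and Dnajc3 was listed under XBP1. The counts that follow depend on which genes were listed. The 9 genes listed as ATF6 targets (Hspa5, Hsp90b1, Hyou1, Calr, Pdia4, Herpud1, Creld2, Sdf2l1 and Manf) were all lower, with a median of -0.52. For all 9 every 4-OHT library lay below every vehicle library. Of all tested genes, 21% were lower and 25.3% had every 4-OHT library below every vehicle library. Of the 6 genes listed as XBP1 targets (Dnajb9, Dnajc3, Edem1, Sec24d, Sec61a1 and Ssr1), 3 were lower and 3 did not pass, with a median of -0.21. Many of these genes answer to both factors in other cells, and no test of the difference between the 2 lists was made. In the separate 4-OHT replicates 1, 2 and 3 the median of the ATF6 list against the vehicle mean was -0.52, -0.51 and -0.50, and that of the XBP1 list was -0.28, -0.20 and -0.20.

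The wider secretory pathway was covered by 75 further genes in 10 lists. Of the 74 tested, 23 (31.1%) were lower, beside 21% of all tested genes, and 12 (16.2%) were higher, beside 22.7%, with a median of -0.04. The difference from the 42 genes was not tested. The PERK arm, which acts through translation and ATF4, had 3 of 5 genes lower and 1 higher. Its target Ddit3, a transcription factor of prolonged stress, fell by 0.84 (limma adjusted p = 9.6e-06), the phosphatase subunit Ppp1r15a by 0.54 (limma adjusted p = 1.7e-05) and Atf4 by 0.43 (limma adjusted p = 4.6e-07). Eif2ak3, which encodes PERK, was the gene of that list that was higher (0.26, limma adjusted p = 0.0053).

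Ero1a, the more widely expressed relative of Ero1b, had the largest change in these lists, and its values are given for that reason. It was at 9021, 8651 and 7214 in vehicle and 2564, 3492 and 3179 in 4-OHT, and the mean fell by 62.9% in libraries that did not overlap (log2 fold change -1.43, SE 0.09, limma adjusted p = 1.1e-10). In the same list of disulfide enzymes the oxidase Qsox1 was higher (0.36, limma adjusted p = 5.2e-06), 5 did not pass and Agr3 was too low to be tested. Agr2 was listed with the goblet cell markers instead, and was higher (0.47, limma adjusted p = 1.1e-05). Txndc11 was lower (-0.17, limma adjusted p = 0.032), a call lost in DESeq2 (adjusted p = 0.055) and on leaving out any 1 library other than 4-OHT replicate 2 (limma adjusted p up to 0.10). The oligosaccharyltransferase, the complex that puts the sugar tree on new proteins, had 6 of 8 genes lower and 2 that did not pass, with a median of -0.19, led by Krtcap2 (-0.60, limma adjusted p = 6.6e-08), Ddost (-0.35, limma adjusted p = 1.5e-06) and the catalytic subunit Stt3a (-0.32, limma adjusted p = 4.1e-06). Of the 6 genes of glucose trimming and the calnexin cycle, 3 were lower: the folding sensor Uggt1 (-0.39, limma adjusted p = 2.0e-06) and the glucosidase genes Ganab (-0.33, limma adjusted p = 3.6e-06) and Mogs (-0.19, limma adjusted p = 0.0073).

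Of the 11 further ERAD factors, 4 (36.4%) were higher, beside 22.7% of all tested genes, and 7 did not pass, with a median of 0.10. There were 0 lower, beside 21% of all tested genes, with 0 at an unadjusted p under 0.05 and 0 in edgeR and DESeq2. The difference from these shares was not tested, and the list is short. The ubiquitin-conjugating enzyme gene Ube2j1 (0.24, limma adjusted p = 9.5e-04) was higher, and so was its relative Ube2j2 (0.22, limma adjusted p = 0.032). The groups overlapped for Ube2j2, and its call was lost with quantile normalization (limma adjusted p = 0.093) and on leaving out any 1 of vehicle replicates 2 and 3 and 4-OHT replicates 2 and 3 (limma adjusted p of 0.084 to 0.21). With 4-OHT replicate 1 as the only 4-OHT library it was at -0.0080. The lists of entry and export were mixed. Of 10 translocon, signal sequence receptor and SRP receptor genes, 2 were lower (Srprb, -0.31, limma adjusted p = 1.0e-04, and Serp1, -0.11, limma adjusted p = 0.046) and Sec62 was higher (0.22, limma adjusted p = 0.0057). Serp1 lost its call on leaving out any 1 library other than 4-OHT replicate 2 (limma adjusted p up to 0.15), and Sec62 lost it without vehicle replicate 1 (limma adjusted p = 0.053). Of 5 signal peptidase genes, Spcs3 (-0.24, limma adjusted p = 0.0056) and Spcs2 (-0.21, limma adjusted p = 9.5e-04) were lower and Spcs1 (0.34, limma adjusted p = 1.8e-04) was higher, with the call of Spcs3 lost without vehicle replicate 2 (limma adjusted p = 0.054). Of 10 COPII genes, 3 were lower, with Sec16a (-0.26, limma adjusted p = 3.5e-04) and Sec31a (-0.18, limma adjusted p = 0.0042) named by size, and 2 were higher, with Sar1b at 0.23 (limma adjusted p = 0.010), which did not pass without 4-OHT replicate 2 (limma adjusted p = 0.074).

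Beside Ufm1, the 6 other UFMylation enzymes held 1 higher gene, the conjugating enzyme Ufc1 (0.27, limma adjusted p = 9.8e-04), 1 lower gene, the ligase Ufl1 (-0.30, limma adjusted p = 0.0020), and 4 that did not pass. Of the 5 genes for the site-1 and site-2 proteases that cut ATF6 and for further CREB3 factors, the site-1 protease gene Mbtps1 was lower (-0.16, limma adjusted p = 0.010), Creb3 was higher (0.52, limma adjusted p = 4.9e-07) and 3 did not pass. With 4-OHT replicate 1 as the only 4-OHT library, Ufc1, Ufl1, Mbtps1, Mogs, Sec62, Serp1, Spcs2, Sec31a and Sar1b did not pass (limma adjusted p of 0.056 to 0.64).

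**Figure D5:**
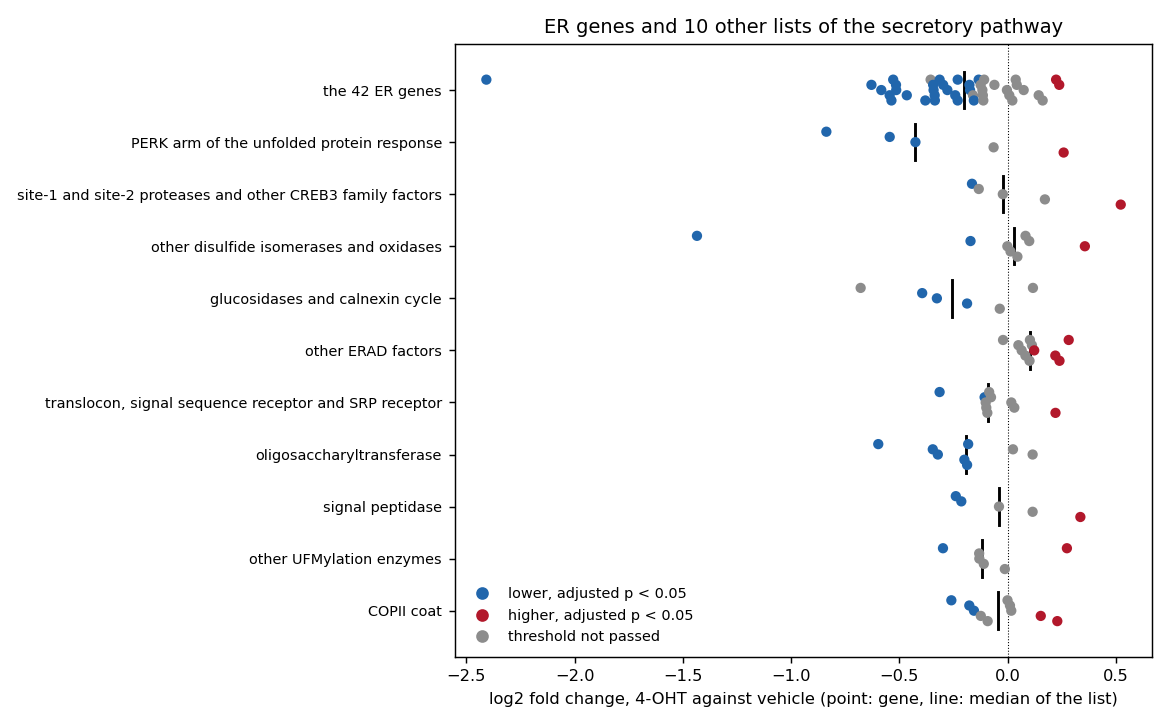
Log2 fold change of every tested gene of the 42 and of 10 further lists of the secretory pathway in 4-OHT against vehicle (points; vertical line: median of the list). The median of the 42 genes lies at -0.20 and that of the other ERAD factors at 0.10, and Ero1a is the outlying point of the disulfide enzymes at -1.43.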

How the data were processed

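Total RNA of the 6 organoid cultures was purified with Trizol and a column kit, and libraries were made and sequenced by a service provider. Per the submitters' processing notes STAR and DESeq2 were used with build GRCm39 (mm39); versions, the counting tool, the annotation and strand are not given in the sources used here. The authors deposited 1 table of normalized counts, a signal in which the reads on each gene are divided by 1 size factor per library, with no correction for length. In each library 100% of values were whole multiples of the value of 1 read, within 0.1 reads, and the reads recovered this way came to 15804709 to 26957612 per library. A floor of 3 reads covers counting error only. Of 25067 rows, 1754 were 0 in every library, and 4 symbols had more than 1 row, none of them a member.

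The 3 4-OHT libraries were compared with the 3 vehicle libraries by limma-trend (limma 3.58.1, R 4.3.3) on log2(normalized count + 1), for 13210 rows with a mean of at least 10, with Benjamini-Hochberg adjustment over all of them and a threshold of 0.05. The added pseudocount pulls the change of low genes toward 0: Derl3 was at -2.82 with a pseudocount of 0.1 and at -1.20 with 10. The count models gave Derl3 a smaller fall (edgeR -1.94, DESeq2 -1.95) than limma did (-2.41). The script was tested on simulated data. edgeR 4.0.16 and DESeq2 1.42.0 were run on the recovered reads as alternatives, and edgeR called 5780 genes where limma called 5765. Further alternatives were pseudocounts of 0.1 and 10, no filter, a minimum mean of 50, TMM factors, quantile normalization, a replicate block, and each library left out. The last was leaving out 4-OHT replicates 2 and 3 together, which leaves 1 library assumed to vary like the vehicle group.

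The members and lists were chosen with earlier results of these data known, so counts over them are descriptions, with no test of a list. Values per library are given for the 7 sensors and transcription factors, for members called and past 0.5 on the log2 scale, and for the member of largest change in each role. From each further list at most the 3 called genes of largest change were to be named, and Eif2ak3 was added after its value was seen. A result that this rule would name is not reported here. Cell type markers were summed per library without a test. Fibroblast, smooth muscle and leukocyte markers summed to 6 to 22, 3 to 9 and 9 to 16 reads in the vehicle libraries and to 8 to 171, 11 to 98 and 17 to 36 in the 4-OHT libraries, and enteroendocrine markers to 31.7 to 45.6 and 49.1 to 57.4 RPM. Repeated libraries of a group differed by 3.49 to 6.44 times the variance of counting (chi-square per degree of freedom), so none is a copy. Promoters came from a RefSeq table of GRCm38.p6, another build than that of the authors, and their coordinates are on that build. In the GENCODE vM21 annotation of GRCm38, 32 of the 42 genes shared no exonic base with another gene on either strand, and Hsp90b1 shared the most (15.7%, with non-coding genes on both strands), whose reads could not be told apart here. Ends of the encoded proteins were planned but are not analysed here.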

Additional observations from a re-analysis of the deposited data

How the results depend on the processing

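The count of lower ER genes was 24, and 19 to 27 over the alternatives, and all 24 were also lower in edgeR and with TMM factors. With 4-OHT replicate 1 as the only 4-OHT library, 3569 genes changed in place of 5765, 1 ER gene was higher in place of 2 and the median of the 42 was -0.27. Fewer libraries were then tested. With quantile normalization the median was -0.28, 27 ER genes were lower (Dnajc3, Edem1 and Pdia3 added), and the cause was not tested. With 1 library left out at a time, 4939 to 5630 genes changed, 21 to 24 ER genes were lower, 2 to 3 higher (3 without vehicle replicate 3) and the median was -0.22 to -0.18. Same-numbered libraries of the groups did not deviate together (correlations of -0.0074, 0.030 and -0.020), so the numbers were not taken to pair the samples. With the replicate block 5637 genes changed, 23 ER genes were lower and 2 higher, Dnajb11 losing its call, and edgeR with the block gave 5607, 23 and 2. Of 713 values of single ER genes over the alternatives, 677 kept direction and call, 23 lost the call, 7 gained it and 6 changed sign, all of genes that did not pass: Atf6b (-0.0029) and Os9 (-0.0038) with quantile normalization, Derl2 (-0.0073) and Edem2 (-0.055) with 4-OHT replicate 1 alone, and Edem2 without vehicle replicate 2 (-0.021) or 4-OHT replicate 2 (-0.019), in a range of -0.021 to 0.039 with 1 library left out. Of 510 values of the other named genes, 477 kept both, 32 lost the call and 1 changed sign (Ube2j2, -0.0080, with 4-OHT replicate 1 alone). Derl3 was too low for a minimum mean of 50 and gave no value there. Derl3 was the only member with a library below 3 reads.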
